A study of Mus musculus with 3 samples.

Results

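The interleukin-7 receptor, its Janus kinases, the STAT5 pair and 3 feedback inhibitors were measured in naive CD4 T cells, helper T cells that have not yet met their antigen. The 9 genes, Il7r, Il2rg, Jak1, Jak3, Stat5a, Stat5b, Socs1, Socs3 and Cish, were picked by name for their place in the pathway and were all found among the 55536 genes of the deposited tables. The cells were primary αβ T cells, labelled thymus-derived, from 1 male adult mouse aged 5 months of the strain B6.SJL-Ptprca Pepcb/BoyJ, a line used as a source of cells marked by its Ptprc allele. PolyA-selected RNA of this 1 animal was sequenced as 3 technical libraries, numbered 1, 2 and 3. There was no treatment, mutant or second animal, and the errors given are SDs over the technical libraries (n = 3), so that every p-value concerns libraries and not conditions. How the cells were sorted is not given in the sources used here.

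Interleukin-7 is made by stromal cells and keeps resting T cells alive. It joins its own receptor chain to the common gamma chain, which receptors for several other cytokines share, and the Janus kinases bound to both chains then phosphorylate STAT5A and STAT5B. The STAT5 proteins move to the nucleus and switch on survival genes together with inhibitors of the SOCS family, among them CISH, which act back on the receptors and kinases.

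Expected counts, the authors' estimated reads per gene, summed to 14800852, 18170786 and 17448768 in libraries 1, 2 and 3. Levels are given as TPM, abundances scaled to a fixed sum per library, which are corrected for transcript length and can be compared between genes. Library 2 had a larger share of its TPM in ribosomal RNA entries (1.08%) than library 1 (0.299%) and library 3 (0.262%), and its median gene lay 0.07 below the mean of the libraries on the log2 TPM scale. Of genes that averaged 1000 or more counts, 66.7% had their lowest TPM in library 2. The T cell markers Cd3e (761 ± 28.8 TPM) and Cd4 (444 ± 6.42 TPM) and the naive marker Ccr7 (2632 ± 111 TPM) were high, and Cd8a was at 0.14 ± 0.0458 TPM, while Cd8b1 stood at 17.0 ± 0.235 TPM. Itgax of myeloid cells had 0 counts in all 3 libraries, which allows up to 0.234 TPM in library 1, while Cd79a of B cells stood at 2.06 ± 0.632 TPM. Foxp3 and Il2ra, which mark regulatory T cells, were at 18.9 ± 1.81 and 7.28 ± 1.15 TPM. In such bulk RNA, few cells with much of a transcript cannot be told apart from many cells with little of it.

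All 9 members were expressed. The receptor chains and Jak1 led, the STAT5 genes followed, and Jak3, Socs1 and Cish were lowest. The full order of mean TPM was Il2rg, Jak1, Il7r, Stat5b, Stat5a, Socs3, Jak3, Socs1 and Cish. Of the 8 pairs of neighbours in that order, the ranges over the libraries overlapped only for Stat5a and Socs3, whose means differed by a factor of 1.04. Every other neighbour pair stood apart in all 3 libraries, by a factor of at least 1.38 between means. The lowest member, Cish, still lay above 69.3% of protein-coding genes. The median over members was 162 TPM, beside a median of 31.4 TPM over the 9817 protein-coding genes with at least 1 TPM in every library.

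**Figure D1:**
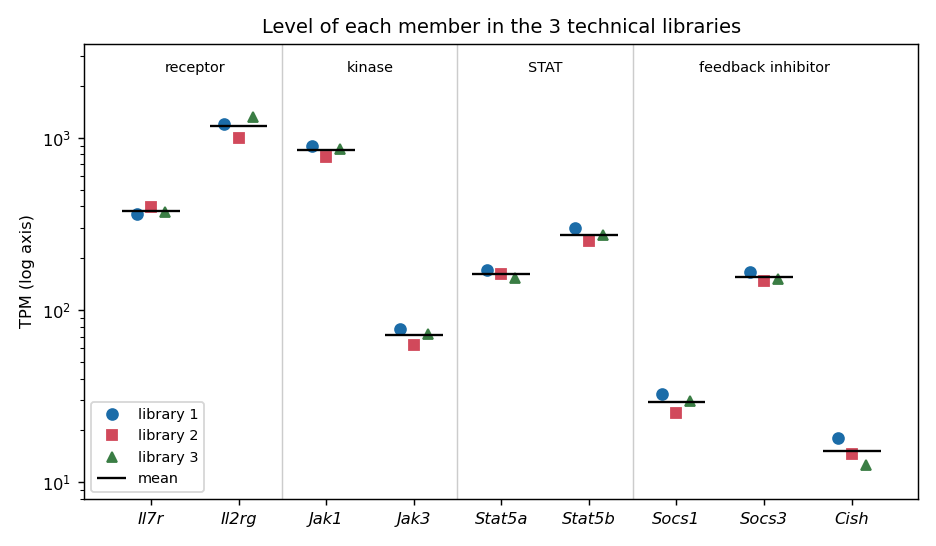
TPM of each member on a log axis in libraries 1 (circles), 2 (squares) and 3 (triangles), with the mean of the 3 libraries as a bar, grouped by role. Il2rg and Jak1 sit near 1000 TPM and Cish near 15. Library 2 is lowest for 6 of the 9 members, beside 66.7% of genes that averaged 1000 or more counts, and highest for Il7r.

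The receptor was represented by far more transcripts of the shared chain than of the specific one. Il7r (ENSMUSG00000003882.5, chr15:9505788-9530176 on the minus strand of GRCm38) encodes the chain that binds interleukin-7. It had 363, 398 and 369 TPM in libraries 1, 2 and 3, a mean of 377 ± 18.5 TPM that exceeded 98.4% of protein-coding genes. Library 2 was the highest of the 3 for Il7r, the only member for which this held on the TPM scale.

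Il2rg (ENSMUSG00000031304.18, chrX:101264378-101268255 on the minus strand) encodes the common gamma chain. It had 1208, 995 and 1312 TPM, a mean of 1172 ± 162 TPM. Here library 2 was the lowest, and no library's Il7r level came near any library's Il2rg level. The log2 ratio of Il7r to Il2rg was -1.74, -1.32 and -1.83, a mean of -1.63 ± 0.27, and the ratio of pooled length-scaled counts was 0.325 (exact Clopper-Pearson 95% interval 0.320 to 0.329, counting error only). The ratio moved between libraries, and library 2 was the one closest to parity. The interval covers the pooled ratio and does not measure the spread between single libraries. Whole-number counts on an older annotation, deposited beside these tables and not corrected for transcript length, gave the opposite order. Without that correction, the log2 ratio was 1.87 on the older counts and -0.69 on the expected counts. The older counts held 647, 638 and 660 for Il2rg, which is 3.66% of its expected counts, and 2243, 2500 and 2397 for Il7r, which is 21.5% of its expected counts. Over genes whose expected counts averaged 1000 or more, the median of that share was 45.0%. In the annotation used for the TPM, Il2rg lies wholly inside Gm20489, a gene on the same strand, which was listed at 0.86, 0 and 0 TPM. Whether that overlap bears on the older counts was not tested.

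Transcripts of the receptor genes were not all of the coding kind. Isoform percent, the part of a gene's TPM that each annotated transcript holds, put Il7r-201, the 8-exon transcript with a coding sequence of 1377 bases, at 71.5%, 69.7% and 71.1%. Il7r-202, annotated as a processed transcript without a coding sequence, took 25.8%, 25.8% and 23.9%, equal to 94.8 ± 7.26 TPM. It shares exons 2 and 3 with Il7r-201 and ends in a long exon 4, of 1145 bases in place of 158, so that exons 5 to 8 are missing. Because Il7r-202 is shorter, its share of the gene's expected counts was smaller, at 12.9 ± 0.593%. Il7r-204, whose exon 7 has 59 bases in place of 76 and whose coding sequence is 858 bases, reached 2.13 ± 0.826%. For Il2rg, the coding transcript Il2rg-201 held 81.1 ± 0.558% and the retained-intron transcript Il2rg-204 held 14.3 ± 0.883%. These splits varied little between libraries for both genes.

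The bases just before the RefSeq start of Il7r are shown because they hold a match to the motif that STAT5 dimers are known to bind, spelled TTCNNNGAA and reading the same on both strands. They run from chr15:9529877-9530040 on the minus strand (RefSeq, GRCm38.p6), and end at the base before that start. They lie outside any annotated exon but inside the gene, in the first intron of Il7r-203, a processed transcript that begins further out at base 9530176 and held 1.89 ± 0.518% of the gene's TPM. The match, in capitals, begins 142 bases before the RefSeq start.

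Il7r upstream: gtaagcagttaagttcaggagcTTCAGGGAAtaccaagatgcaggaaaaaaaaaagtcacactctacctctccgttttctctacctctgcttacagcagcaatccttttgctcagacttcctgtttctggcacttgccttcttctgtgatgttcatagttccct

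The motif occurred in 3 of 11 windows of the members, each from 250 bases before to 50 after a RefSeq start, and in 2726 of 32851 such windows of all genes (8.30%). The 3 windows belonged to Il7r, Socs3 and Cish. No match was found in the windows of Il2rg, Jak1, Jak3, Stat5a, Stat5b or Socs1, which says only that these letters are not there. A match is a description of letters and not a measured binding site.

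The kinases differed widely in level. Jak1 (ENSMUSG00000028530.14, chr4:101152367-101265282 on the minus strand), the kinase that docks on the interleukin-7 receptor chain, had 894, 776 and 861 TPM, a mean of 844 ± 61.2 TPM. Jak3 (ENSMUSG00000031805.17, chr8:71676296-71690575 on the plus strand), the kinase of the common gamma chain, had 77.9, 62.9 and 72.8 TPM, a mean of 71.2 ± 7.62 TPM. Library 2 was lowest for both, and the ranges of the kinases were far apart. The log2 ratio of Jak1 to Jak3 was 3.52, 3.62 and 3.56, a mean of 3.57 ± 0.05, and the pooled length-scaled ratio was 11.9 (interval 11.6 to 12.2). This was the steadiest of the ratios between members of 1 role. Counts on the older annotation, again not corrected for length, gave a log2 ratio of 1.78, in the same direction.

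Jak2, a kinase of other cytokine receptors, was level with Jak3. It averaged 71.8 ± 2.75 TPM, and the log2 ratio of Jak2 to Jak3 was -0.08, 0.13 and 0.01, with a sign that changed between libraries and a pooled interval of 0.985 to 1.04. Tyk2, the remaining Janus kinase, lay below Jak3 at 41.4 ± 3.53 TPM, with a log2 ratio of Jak3 to Tyk2 of 0.78 ± 0.07. Il2rg exceeded Il2rb, the signalling chain it joins in interleukin-2 receptors, by 4.98 ± 0.14 on the log2 scale. The genes of these further ratios were chosen after their values were seen.

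Jak1 was carried by 1 transcript and Jak3 by a pair. Jak1-201, with 25 exons and a coding sequence of 3459 bases, held 90.1%, 82.7% and 90.3% of the gene's TPM, and 98.2 ± 0.667% of its expected counts. The lower share in library 2 went with Jak1-204, a processed transcript of 589 bases, which held 1.51%, 9.05% and 1.42% in libraries 1, 2 and 3. Jak1-204 was named after its values were seen. Jak3-202 held 66.8%, 66.0% and 56.7%, and Jak3-201 held 27.3%, 27.0% and 39.6%. Both Jak3 transcripts have a coding sequence of 3300 bases and differ at both ends: they have their own exon 1, and Jak3-202 ends in an exon 24 of 519 bases where Jak3-201 has an exon 24 of 123 bases and an exon 25 of 404 bases. Library 3 gave more to Jak3-201 than the others. The last 1362 bases of the Jak3 locus are shared with Insl3, a hormone gene on the same strand that was listed at 31.9, 23.2 and 23.8 TPM. Of the pair, Jak3-201 alone has an exon there, its exon 25, so reads from it may have been split between the genes and may enter the split between Jak3-201 and Jak3-202. At its far end Jak1 shares 4 bases with Raver2 (13.2 ± 0.158 TPM), and its locus spans Gm24468 (1.84 ± 0.251 TPM) and Gm12785 (0 TPM).

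**Figure D2:**
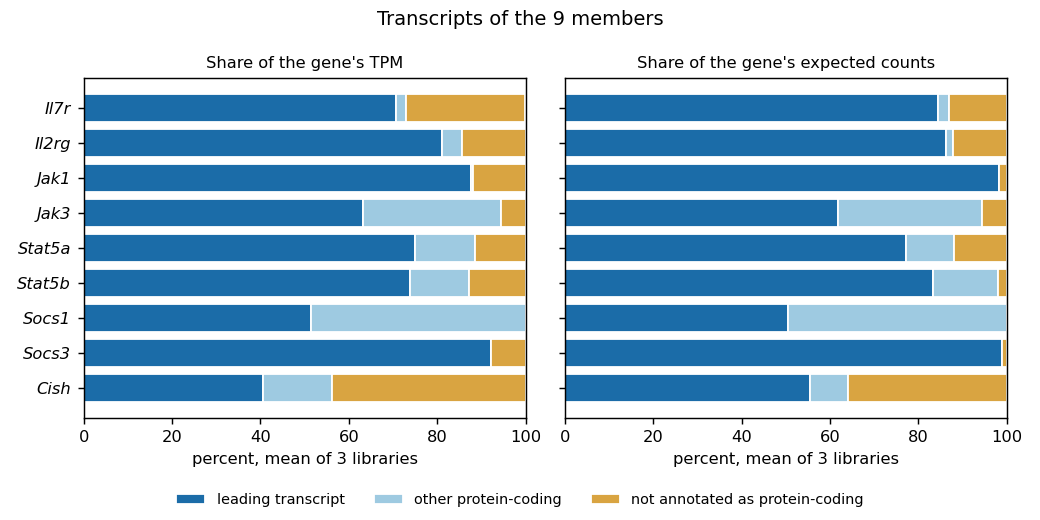
Mean share over 3 libraries of each member's TPM (left) and expected counts (right) held by its leading transcript, by other protein-coding transcripts and by transcripts not annotated as protein-coding. Cish has the largest non-coding share on both scales, Socs1 has none, and the non-coding shares of Il7r and Jak1 shrink when counts are used in place of TPM.

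Both STAT5 genes were expressed, Stat5b above Stat5a in every library. Stat5b (ENSMUSG00000020919.11, chr11:100780731-100850724 on the minus strand) had 297, 251 and 271 TPM, a mean of 273 ± 23.1 TPM. Stat5a (ENSMUSG00000004043.14, chr11:100859351-100885169 on the plus strand) had 170, 162 and 153 TPM, a mean of 162 ± 8.67 TPM. The log2 ratio of Stat5b to Stat5a was 0.80, 0.63 and 0.83, a mean of 0.75 ± 0.10, and the pooled length-scaled ratio was 1.68 (interval 1.65 to 1.71). Their proteins are close relatives, and reads that match both genes may have been split between them, so the ratio carries that uncertainty. Stat5a also shares its last 72 bases with Stat3 on the opposite strand, and whether counting used strand is not given in the sources used here.

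The 2 genes lie head to head on chromosome 11, with 8626 bases between the outermost annotated starts, and both used mainly a start other than the outermost. Stat5b-202, which begins at base 100822528, inside the gene, held 69.4%, 74.2% and 77.7% of Stat5b. Stat5b-201, which begins at the outer end at base 100850724, held 18.3%, 11.3% and 10.7%, and the short processed transcript Stat5b-203 held 12.8 ± 1.46%. Transcripts from the outer end together thus held 26.2 ± 4.19% of the TPM and 16.6 ± 4.55% of the expected counts, highest in library 1 on both scales. Stat5b-201 and Stat5b-202 have 19 exons each, the same coding length of 2358 bases, and differ in exon 1 alone. For Stat5a, Stat5a-202 held 74.9 ± 3.06% and the processed transcript Stat5a-207 held 10.7 ± 0.916%. Stat5a-203, annotated with an internal start, lay just below the 10% set for naming, at 9.97 ± 2.75%.

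**Figure D3:**
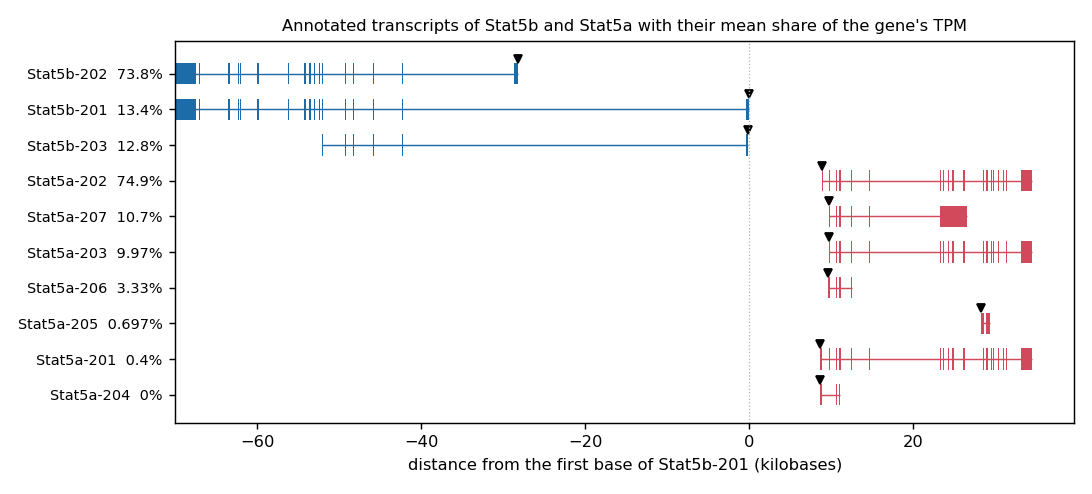
Annotated transcripts of Stat5b (blue, running left) and Stat5a (red, running right), with exons as boxes, the first base as a triangle and the mean share of the gene's TPM beside the name, against distance in kilobases from the first base of Stat5b-201. The leading Stat5b transcript, at 73.8%, begins well inside the gene, while the outer start carries the 13.4% and 12.8% transcripts.

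The internal starts of the paralogs are printed because their upstream stretches share a run of 16 bases, in capitals. For Stat5a this is not the start of the leading transcript, Stat5a-202, which held 74.9 ± 3.06% of the TPM. Transcripts annotated to begin at or near it, Stat5a-203, Stat5a-206 and Stat5a-207, together held 24.0 ± 2.65%. The first exons of Stat5a-203 and Stat5a-207 lie within exon 2 of Stat5a-202, bases 100860484 to 100860576. Their shares thus do not measure use of that start. Among them only Stat5a-206, at 3.33 ± 0.725%, has first-exon bases outside that exon. The Stat5a stretch is chr11:100860445-100860474 on the plus strand and the Stat5b stretch chr11:100822571-100822600 on the minus strand (RefSeq, GRCm38.p6). The Stat5a stretch lies in the first intron of Stat5a-202 and inside exon 1 of Stat5a-206, bases 100860345 to 100860576.

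Stat5a internal start: tttgaggAGGAAATCGCTGCTCTctgctcc
Stat5b internal start: ttttagaAGGAAATCGCTGCTCTttgcttc

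Aligned without gaps, 26 of these 30 letters are equal. The run ends 16 bases before the RefSeq start of Stat5a and 7 bases before that of Stat5b. The other 3 pairings of a Stat5a window with a Stat5b window had longest shared runs of 7, 9 and 11 bases. Neither stretch holds TTCNNNGAA. The RefSeq start of Stat5b is base 100822570, a little outside the first base of the leading transcript, 100822528. The 250 bases before the RefSeq start, chr11:100822571-100822820 on the minus strand, lie outside any annotated exon and are given with the same run in capitals.

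Stat5b upstream: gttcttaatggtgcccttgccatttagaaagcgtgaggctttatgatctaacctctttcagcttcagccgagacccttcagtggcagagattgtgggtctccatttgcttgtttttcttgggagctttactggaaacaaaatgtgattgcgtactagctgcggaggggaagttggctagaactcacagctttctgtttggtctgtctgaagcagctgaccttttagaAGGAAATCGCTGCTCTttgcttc

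The 3 feedback inhibitors were unequal, with Socs3 highest and Cish lowest. Socs3 (ENSMUSG00000053113.3, chr11:117966079-117970047 on the minus strand), best known as an inhibitor of receptors that signal through gp130, had 166, 147 and 152 TPM, a mean of 155 ± 9.72 TPM. Socs1 (ENSMUSG00000038037.5, chr16:10782240-10785536 on the minus strand), which binds and blocks the Janus kinases themselves, had 32.6, 25.2 and 29.8 TPM, a mean of 29.2 ± 3.71 TPM. Cish (ENSMUSG00000032578.7, chr9:107296026-107302784 on the plus strand), an inhibitor that STAT5 is known to induce, had 18.2, 14.7 and 12.6 TPM, a mean of 15.1 ± 2.80 TPM. The ranges of the 3 genes did not overlap, and library 2 was lowest for Socs1 and Socs3 while library 3 was lowest for Cish.

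The log2 ratio of Socs1 to Socs3 was -2.34, -2.54 and -2.35, a mean of -2.41 ± 0.11, with a pooled length-scaled ratio of 0.188 (interval 0.179 to 0.196). That of Socs1 to Cish was 0.84, 0.78 and 1.23, a mean of 0.95 ± 0.25, with a pooled ratio of 1.92 (interval 1.78 to 2.07). The Socs1 to Cish ratio moved most in library 3. Cish rested on few reads, with 277, 380 and 239 expected counts in libraries 1, 2 and 3, and the half-width of its deposited TPM interval averaged 26.2% of the posterior mean. For the other 8 members that half-width was between 1.89% and 6.93%.

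Only part of the Cish signal was assigned to transcripts annotated as protein-coding, and little to the one with the longest coding sequence. Protein-coding transcripts held 49.5%, 60.4% and 58.9% of the gene's TPM, or 8.42 ± 0.852 TPM, the smallest coding share among members, whose other means ran from 72.9% for Il7r to 100% for Socs1. Cish-201, whose coding sequence of 771 bases is the longest of the gene, was listed at 0, 0.65 and 1.20 TPM. Cish-204 led with 40.6 ± 2.79%. It lacks the 221-base exon 2 of Cish-201, begins further in, and has an annotated coding sequence of 186 bases. Its last exon runs to base 107302784, past the end of Cish-201 at base 107301987. Cish-205, a processed transcript of 371 bases, held 39.1%, 19.8% and 31.9% of the TPM but 5.12 ± 2.20% of the expected counts, while Cish-202, a longer processed transcript, held 13.5 ± 5.61% of the TPM and 30.8 ± 8.37% of the counts. Cish-203, of 411 bases, held 11.1 ± 1.66%. The split of Cish thus depended on whether transcripts were weighed per length, and its order changed between libraries. Exon 2 of Cish-201 is also in Cish-202 and Cish-205 and, in part, in Cish-203. Reads that match several of these transcripts may have been split between them, and the low level of Cish-201 carries that uncertainty. Gm17041, an antisense gene over 1459 bases of the locus, stood at 5.81, 1.53 and 6.12 TPM, and Gm17040, which overlaps the other end, at 0 TPM, so reads of either strand may have entered the Cish values.

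Socs1 and Socs3 were simpler. Socs1-201 and Socs1-202 share their first base and a coding sequence of 636 bases, and held 51.6%, 63.3% and 39.5% against 48.4%, 36.8% and 60.5% in libraries 1, 2 and 3. Which of them led changed between libraries, so neither can be called the main form. Socs3-201, with a coding sequence of 675 bases, held 92.2 ± 2.07%.

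The inhibitor genes with a motif match are shown at the match, in capitals. The Cish stretch is chr9:107296654-107296683 on the plus strand and the Socs3 stretch chr11:117969501-117969530 on the minus strand (RefSeq, GRCm38.p6).

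Cish site: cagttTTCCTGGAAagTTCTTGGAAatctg
Socs3 site: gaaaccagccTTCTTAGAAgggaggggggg

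Cish held 2 matches in 1 window, at positions 1 and 12 counted from the RefSeq start, which lies upstream of the first base of Cish-204. Both lie inside exon 1 of Cish-201, bases 107296026 to 107297034. At least 2 matches occurred in 150 of the 32851 windows of all genes (0.457%). The Socs3 match begins 154 bases before its RefSeq start, in no annotated exon but inside the first intron of Socs3-202.

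Summed by role, the receptor chains held 1548 ± 146 TPM, the kinases 915 ± 68.8, the STAT5 genes 435 ± 28.9 and the inhibitors 199 ± 15.4. The sums kept this order in each library. The median of the 6 receptor, kinase and STAT members exceeded the median of the 3 inhibitors by 3.29, 3.60 and 3.37 in libraries 1, 2 and 3 on the log2(TPM + 1) scale, a mean of 3.42 ± 0.16. The roles did overlap gene by gene, since Socs3 lay above Jak3 and its range overlapped with that of Stat5a.

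By a test that takes expected counts as plain counts, all 9 members differed between the libraries beyond counting noise, as did many genes. Error in assigning reads to genes was not part of the test. The deposited TPM intervals of all 3 libraries overlapped for Cish and Socs3, but not for any other member. Those of Cish were 10.9 to 19.0, 10.1 to 16.1 and 8.19 to 14.7 TPM in libraries 1, 2 and 3. In a chi-square test of homogeneity on counts scaled by TMM, which evens out library size and composition, with Benjamini-Hochberg adjustment over the 13090 genes that averaged 10 or more counts, 9 of 9 members were past an adjusted p of 0.05, beside 40% of all genes tested. The power of the test grows with depth, and among the 3850 genes that averaged 1000 or more counts it called 71.6%. The differences were small: the highest library exceeded the lowest by a factor of 1.06 for Socs3 to 1.22 for Il2rg in 8 members, and by 1.57 for Cish. The median over genes with at least 1000 counts was 1.13.

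Il7r gave 612, 727 and 629 TMM-scaled CPM, counts brought to a common library size, in libraries 1, 2 and 3 (adjusted p = 2.14e-42, chi-square), with library 2 standing above the others. Cish gave 18.6, 21.3 and 13.6 (adjusted p = 1.55e-06, chi-square), with library 3 standing below. Cish was thus highest in library 1 by TPM and in library 2 by scaled counts, which differ in their use of transcript length. The weakest call was Socs3, at 223, 210 and 210 (adjusted p = 0.0352, chi-square). Scaled counts were lowest in library 2 for 5 members, Il2rg, Jak1, Jak3, Stat5b and Socs1, and highest there for 3, Il7r, Stat5a and Cish, against 49.4% and 35.6% of genes with at least 1000 counts. Without library 2 the test called 1903 genes (14.7% of those tested) and 5 members. Il7r (adjusted p = 0.193), Jak3 (0.189), Socs1 (0.335) and Socs3 (0.0596) were no longer past the threshold by the same chi-square test. Without library 3, Cish (adjusted p = 0.203) and Stat5a (0.216) were no longer past it, and without library 1, Socs1 (0.0934) and Socs3 (0.991) were not (chi-square). On the older counts Il7r (0.239), Il2rg (0.143), Jak3 (0.0579), Socs1 (0.605), Socs3 (0.808) and Cish (0.502) were not past it either. The lowest adjusted p under any alternative was 6.83e-49 for Il7r, 1.41e-102 for Il2rg, 4.99e-07 for Jak3, 3.63e-12 for Stat5a, 0.000865 for Socs1, 0.00339 for Socs3 and 3.08e-07 for Cish (chi-square). Jak1 and Stat5b passed under every alternative run. The part of the ribosomal RNA share of library 2 in these differences was not tested.

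**Figure D4:**
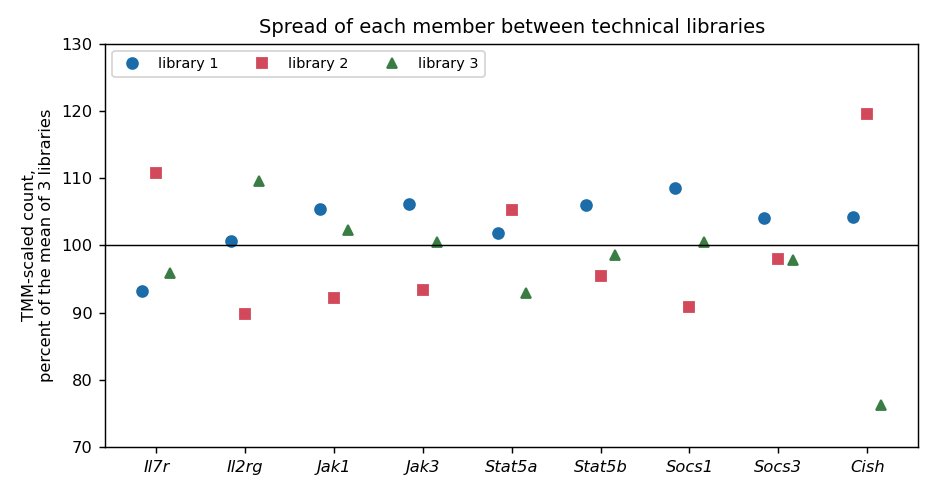
TMM-scaled count of each member in each technical library as a percent of its mean over the 3 libraries, with a line at the mean. Library 2 is at 111% for Il7r and 120% for Cish, library 3 at 76.2% for Cish, and the other members lie within about 10 points of the mean.

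Around the 9 members, 66 further genes of the pathway were read from 8 lists. Of these, 56 (beside 44.7% of all protein-coding genes) reached 1 TPM in every library, with a median of 53.5 TPM over the 66. Of the 57 tested, 32 differed between libraries, beside 40% of all genes.

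None of the 7 cytokines that use these receptors reached 1 TPM in every library of these T cells. Il7, which encodes the ligand, had 0 counts in every library, which allows up to 0.144, 0.111 and 0.121 TPM. Il9 and Tslp, a related cytokine that signals through Il7r, also had 0 counts. Il15, the highest, was at 0, 0.72 and 0.26 TPM, and Il2, the growth factor of activated T cells, at 0, 0.29 and 0.30 TPM, on 4 and 6.86 expected counts over the libraries.

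Other receptor chains were present, 8 of 9 of them, with a median of 36.8 TPM. Il4ra, the interleukin-4 receptor chain, had 813, 662 and 770 TPM, and Il21r, the interleukin-21 receptor chain, had 640, 534 and 654 TPM. Both partners of the common gamma chain lay above Il7r in all 3 libraries, Il4ra by 0.99 ± 0.22 and Il21r by 0.69 ± 0.23 on the log2 scale. At the other end was Il9r, at 0.08, 0 and 0.06 TPM.

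All 7 of the other JAK and STAT genes were detected, with a median of 128 TPM. Stat3, used by interleukin-6 family receptors, had 357, 290 and 357 TPM and exceeded Stat5b by 0.29 ± 0.10 on the log2 scale, and it was above Stat5b in each library. Stat2 was lowest, at 37.8 ± 1.33 TPM.

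Among other brakes on the pathway, 8 of 9 SOCS and PIAS genes reached 1 TPM in every library, with a median of 23.4 TPM. Pias1 and Pias2, which encode inhibitors that bind STAT proteins, stood at 152 ± 19.4 and 65.7 ± 5.97 TPM, and Socs2 was lowest at 1.16 ± 0.344 TPM. The mean of Socs3 exceeded that of each of these 9 genes, though its range overlapped with that of Pias1. All 8 phosphatases and adaptors that restrain the kinases were detected, with a median of 131 TPM. Ptprc, the CD45 phosphatase, was highest at 1134 ± 85.5 TPM, Cblb, a ubiquitin ligase, stood at 518 ± 26.0, and Ptpn11 was lowest at 12.1 ± 2.01.

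Of 8 adaptor and PI3-kinase genes, 7 were detected, with a median of 87.0 TPM. Pik3cd, the catalytic subunit typical of leukocytes, led at 315 ± 19.8 TPM and Grb2, an adaptor, followed at 168 ± 22.6, while Gab2 was at 0.06, 0 and 0.04 TPM. All 10 genes known as STAT5 or interleukin-7 targets were detected, with a median of 120.0 TPM. Ccnd2, a cyclin, had 676 ± 52.2 TPM and Mcl1, a survival factor, 555 ± 17.5, while Bcl6, a repressor that STAT5 is known to hold down, was lowest at 19.4 ± 2.11. Cish, itself a known target, had a mean below that of Bcl6, though their ranges overlapped.

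All 8 transcription factors known to act on Il7r were detected, with a median of 125 TPM. Ets1 stood at 1633 ± 165 TPM and Klf2, a quiescence factor, at 1040 ± 33.1, and Gfi1, known as a repressor of Il7r, was lowest at 27.1 ± 2.55. The lists were put together with earlier results of these data known, so their counts are descriptions.

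**Figure D5:**
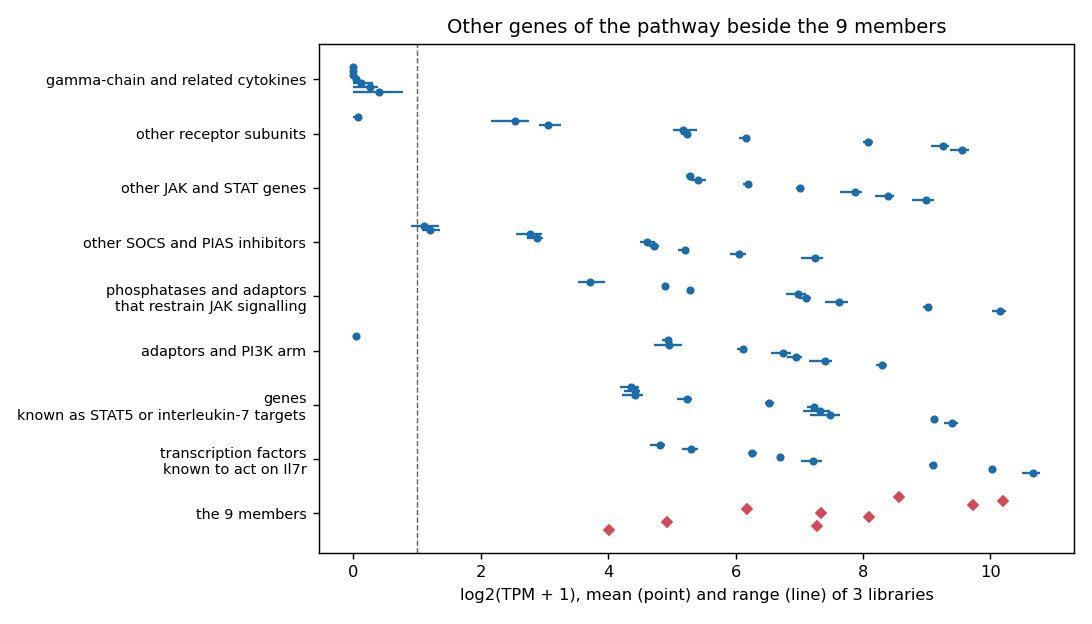
Mean (points) and range (lines) over 3 libraries of log2(TPM + 1) for 66 other pathway genes in 8 lists, with the 9 members as diamonds in the lowest row, a dashed line at 1 TPM and vertical offsets that only separate points. The cytokines lie left of the line, Il9r and Gab2 do so in their lists, and the members span from Cish at 15.1 to Il2rg at 1172 TPM.

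The protein-coding genes nearest to Il7r in level over the 3 libraries, by Euclidean distance in log2(TPM + 1), were Dusp5, a phosphatase of ERK kinases (distance 0.0952), Mif, a cytokine (0.0954), and Rhoa, a small GTPase (0.0992). Dusp5 had 353, 382 and 353 TPM, Mif 375, 393 and 349, and Rhoa 386, 386 and 366. With 3 technical libraries this likeness describes level and library spread and nothing more.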

How the data were processed

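PolyA RNA was measured in 3 technical libraries of 1 mouse. Per the labels and the text deposited with the files, the assembly was mm10, with GENCODE M21 annotation, or M4 in an older count table. Neither the aligner nor the counter, nor its use of strand, is stated in those sources. The authors deposited expected counts, which need not be whole, and TPM, both as maximum-likelihood and posterior mean estimates, with TPM interval bounds that bracket the posterior mean and whose level the headers do not state. Isoform percent was taken as deposited, and the whole-number counts deposited on M4 served only for alternatives. Entries that name no gene held 0.247%, 0.200% and 0.325% of expected counts and were left out.

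The members and lists were chosen with earlier results of these data known. Expected counts were rounded, scaled by TMM with edgeR 4.0.16 in R 4.3.3 using genes that averaged 10 or more counts, then compared between libraries by a chi-square test for each gene (scipy 1.17.1) with Benjamini-Hochberg adjustment. The procedure was tested on simulated libraries with counting noise and with changes planted in some genes of library 2. They held no other noise, so its behaviour under other technical noise was not tested. A quasi-likelihood fit between single libraries has no residual degrees of freedom. Pair ratios used a pseudocount of 0.1 TPM and list values one of 1. Detected means that no library had less than 1 TPM. A count of 0 allows up to 3 counts. Floors and intervals cover counting error only, since reads carry no molecular identifiers. The rule for named genes took all members, the 2 highest and the lowest genes of each list, the 3 genes nearest to Il7r, transcripts of at least 10% mean share, and overlapping neighbours; some genes that it names are not reported here. Further ratios, and TPM over protein-coding transcripts alone as an alternative, were added after seeing the data. Other alternatives were library totals or DESeq2 1.42.0 size factors, other filters and pseudocounts, posterior means, counts without length correction, the M4 counts, and leaving out each library. Sequences and start sites came from RefSeq windows on GRCm38.p6, found for all 9 members.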

Additional observations from a re-analysis of the deposited data

How the results depend on the processing

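Of 120 alternatives, 92 left a level, ratio or share within 1 SD or a count within 1.5 times its value. Of the rest, 27 moved it further and 1 turned it round, and the cause was not tested. Leaving out 1 of 3 libraries cannot move a mean by 1 SD of the same 3 values. For levels, ratios and shares, those alternatives were thus fixed in advance and count among the 92. A count within 1.5 times can still have lost members, as named here. The reversal was the log2 ratio of Il7r to Il2rg, which was 1.87 on the older counts and -0.69 on expected counts, both without length correction. Without length correction, Jak1 to Jak3 was 3.76, Stat5b to Stat5a 1.11, Socs1 to Socs3 -2.15, Socs1 to Cish 1.46 and the difference between role medians 3.82. On the older counts these ratios were 1.78, 0.42, -0.999 and 1.74 in the same order. With protein-coding transcripts alone, Jak1 to Jak3 was 3.47, Socs1 to Socs3 -2.29, Socs1 to Cish 1.78 and the difference between role medians 3.09. The older counts called 1895 genes (18.9% of those tested) and 3 members, Jak1, Stat5a and Stat5b. In the main setting these were 5238 genes (40%) and 9 members. With no filter on low counts Socs3 was lost (adjusted p = 0.189, chi-square). Leaving out each library in turn gave -1.78 to -1.53 for Il7r to Il2rg, 3.54 to 3.59 for Jak1 to Jak3, 0.72 to 0.81 for Stat5b to Stat5a, -2.44 to -2.35 for Socs1 to Socs3, 0.81 to 1.04 for Socs1 to Cish and 3.33 to 3.48 for the role medians. It called 1903 to 4875 genes (14.7% to 36.8% of those tested) and 5 to 7 members: library 1 took away Socs1 and Socs3, and library 3 Stat5a and Cish. Called in every pair of libraries were 3 members, and the share of all genes called in every pair was not computed. Of 45 alternatives for leading-transcript shares, 37 stayed within 1 SD, among them every one that left out a library, which could not do otherwise. By posterior means the shares of Stat5a and Cish moved. By expected counts those of Il7r, Il2rg, Jak1, Stat5b, Socs3 and Cish moved. Cish had the fewest counts and the widest deposited interval of the members; the part of depth in that width was not tested. No paired analysis was possible because there is 1 group.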
